A study of Homo sapiens with 3 samples.

Results

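The genes described here encode the chaperones, folding enzymes and degradation machinery of the endoplasmic reticulum (ER) and the sensors of the unfolded protein response (UPR). They were chosen by name, with earlier results of these data known, as 36 genes of the 23595 genes that the arrays measured. Shares of all genes set beside their counts are therefore a description. All 36 were found, through 75 transcripts. The RNA came from HaCaT, a line of human skin keratinocytes that became immortal in culture without an added oncogene. The Control array held untreated cells and the ATRA array cells given all-trans retinoic acid, the active form of vitamin A, at 1 µM for 36 h. The ATRA+NIC array held cells given retinoic acid in the same way and nicotinamide, the amide form of vitamin B3, as well. The sources used here do not state the dose of nicotinamide. Each group is 1 array, all from the same cell line, and cells with nicotinamide but no retinoic acid were not analysed here.

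In the ER, newly made secreted and membrane proteins are folded with the help of chaperones of the HSP70 and HSP90 families, lectin chaperones that read sugar chains, and enzymes that form disulfide bonds. Proteins that fail to fold are drawn back into the cytosol and degraded. When unfolded proteins accumulate, the membrane sensors encoded by ERN1 (IRE1), EIF2AK3 (PERK) and ATF6 signal to the nucleus, where the transcription factors XBP1 and ATF6 raise the genes of folding and degradation. Keratinocytes use the same machinery for the adhesion proteins and proteases that they place on or outside the cell surface.

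Nearly all of these genes were highest on the ATRA array. Of the 36 genes, 35 had a higher level on the ATRA than on the Control array, while 47.7% of all measured genes did, and 45.6% of the 12467 genes that passed a filter on low levels. The other member was lower, as were 52.3% of all measured and 54.4% of the filtered genes. A gene's level is the mean of the log2 intensities of its transcripts, and the filter asks that it reach 7.95, the median of all genes and arrays, on at least 1 array. At least 2-fold higher were 11 of the 36 genes, beside 4.23% of all measured and 3.83% of the filtered genes. At least 2-fold lower were 0 of the 36, beside 3.22% and 2.06%. On the ATRA+NIC array 34 of the 36 were lower than on the ATRA array, and 0 of the 36 stood 2-fold away from Control. There was 1 array per group, so no test between groups was possible and none of these differences has an error between replicates. Whether the 3 RNAs came from cultures grown side by side is not stated in the sources used here.

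The filter was passed by 32 of the 36 genes. WFS1, MBTPS2, DERL3 and ERO1B stayed under it on every array, and DNAJB9 passed only through the ATRA array. Counts are therefore given over all 36. The median log2 difference of the 36 genes was 0.70 for ATRA against Control, beside −0.04 for all filtered genes. For ATRA+NIC against ATRA it was −0.64 beside 0.05, and for ATRA+NIC against Control −0.08 beside −0.01. The first 2 comparisons share the ATRA array, so a gene that is high there enters both. The only scatter that could be measured is that between transcripts of the same gene, called technical scatter here. Their differences had a pooled SD of 0.31, 0.30 and 0.24 log2 units in these comparisons. This SD may include true differences between forms of an mRNA, and it holds no error between replicate arrays or cultures.

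**Figure D1:**
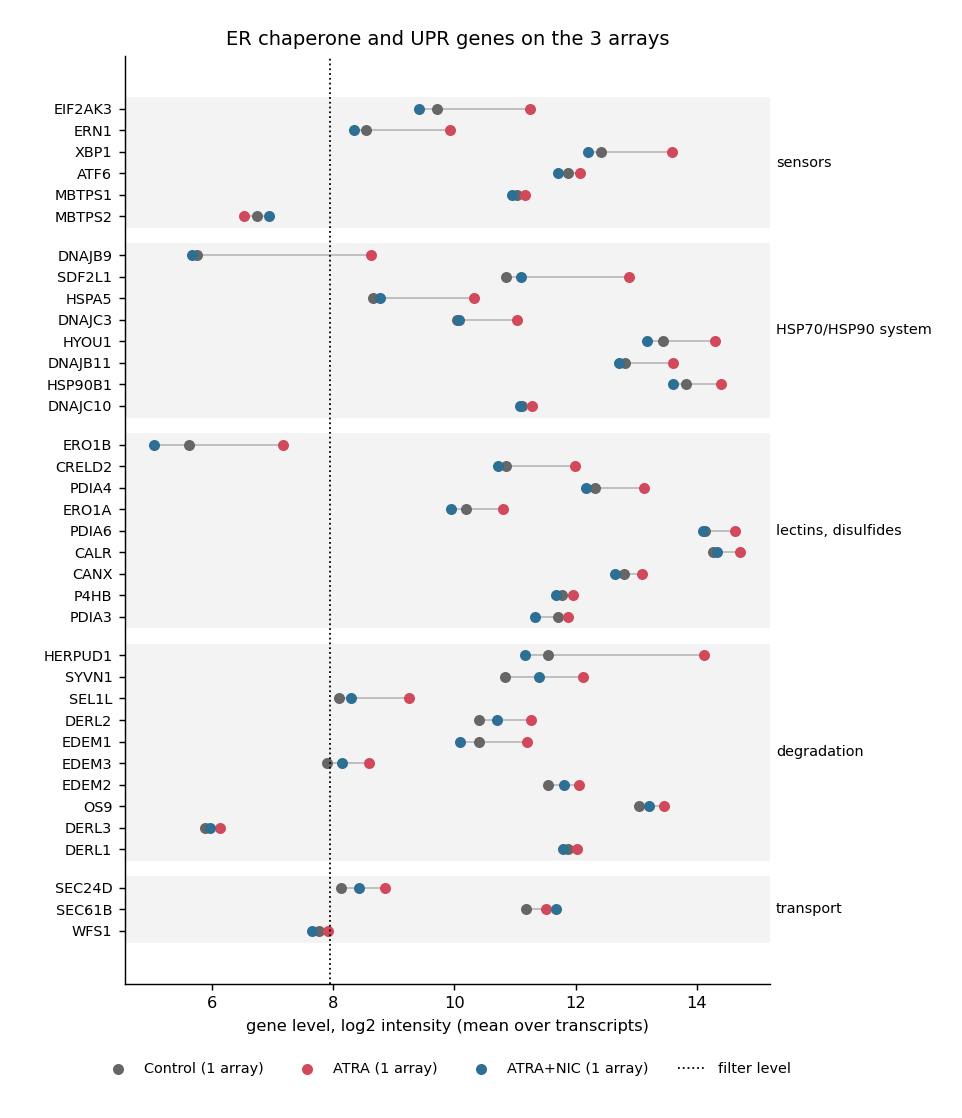
Level of each of the 36 ER genes on each of the 3 arrays (Control, ATRA, ATRA+NIC), as log2 intensity averaged over transcripts, with 1 array per group and no error bars. Genes are ordered within their role by the difference between ATRA and Control, and the ATRA point lies to the right of both others for 34 of the 36 genes.

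Promoters of UPR target genes are known for short elements that these transcription factors read. ERSE and ERSE-II are read together with the factor NF-Y, which binds their CCAAT part, and the UPRE has no such part. The element called ERSE is CCAAT, then any 9 bases, then CCACG. ERSE-II is ATTGG, then any 1 base, then CCACG, and the UPRE is TGACGTGG. RefSeq promoter windows of GRCh38.p14, from 250 bases before to 50 after the start of a gene, were matched for 32 of the 36 genes and searched on both strands for exact matches. An ERSE was present in the windows of 8 of these 32 genes (25.0%), and for 0.0916% of all 27305 genes with a window. An ERSE-II was present for 3 of the 32 genes, and for 0.0696% of all genes. The shorter UPRE was present for 2, in the windows of HYOU1 and DNAJC10, and for 0.927% of all genes. Over the 35116 windows, of which a gene may have several, the shares were 0.0769% for ERSE, 0.0541% for ERSE-II, 0.729% for the UPRE and 38.1% for the CCACG that ends ERSE and ERSE-II. The elements are known from UPR target genes, so their share among genes chosen for this pathway is no independent result. These are matches of letters, and no binding was measured. PDIA3, SEC24D, DERL1 and DERL3 were not matched.

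The bases just before the start are shown for the 6 genes that were at least 2-fold higher on the ATRA array and hold an ERSE or ERSE-II, with the fixed letters of the element in capitals. They are read 5′ to 3′ on the strand of the gene, so an element on the opposite strand appears reversed and complemented.
HERPUD1, chr16:56931992-56932141, plus strand, ERSE-II: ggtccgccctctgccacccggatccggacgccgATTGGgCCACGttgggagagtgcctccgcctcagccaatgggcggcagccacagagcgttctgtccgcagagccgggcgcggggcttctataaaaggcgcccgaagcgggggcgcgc
SDF2L1, chr22:21642102-21642301, plus strand, ERSE-II on the opposite strand: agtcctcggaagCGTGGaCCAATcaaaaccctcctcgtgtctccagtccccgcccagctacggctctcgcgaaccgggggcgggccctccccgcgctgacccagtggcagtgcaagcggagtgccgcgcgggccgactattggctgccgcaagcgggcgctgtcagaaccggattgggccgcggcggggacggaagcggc
HSPA5, chr9:125241344-125241493, minus strand, ERSE: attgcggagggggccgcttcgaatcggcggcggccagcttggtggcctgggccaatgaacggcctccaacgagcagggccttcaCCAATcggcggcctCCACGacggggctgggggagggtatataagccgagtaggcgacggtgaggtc
ERO1B, chr1:236281959-236282208, minus strand, ERSE on the opposite strand: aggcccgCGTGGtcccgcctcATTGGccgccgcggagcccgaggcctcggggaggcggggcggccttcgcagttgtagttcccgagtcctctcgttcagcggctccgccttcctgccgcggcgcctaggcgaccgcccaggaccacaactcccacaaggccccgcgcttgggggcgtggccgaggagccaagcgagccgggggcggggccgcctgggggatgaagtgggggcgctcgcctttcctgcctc
XBP1, chr22:28800570-28800719, minus strand, ERSE: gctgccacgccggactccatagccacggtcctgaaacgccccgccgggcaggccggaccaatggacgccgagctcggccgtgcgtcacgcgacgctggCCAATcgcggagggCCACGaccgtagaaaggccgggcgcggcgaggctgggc
CRELD2, chr22:49918484-49918633, plus strand, ERSE on the opposite strand: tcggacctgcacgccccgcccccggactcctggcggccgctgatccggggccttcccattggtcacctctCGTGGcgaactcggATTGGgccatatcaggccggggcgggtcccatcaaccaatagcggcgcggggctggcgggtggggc
In HSPA5 the ERSE begins 66 bases before the start and in XBP1 52 bases before it, the latter in 1 of the 2 windows of that gene. In HERPUD1 the ERSE-II begins 117 bases before the start. In SDF2L1 the ERSE-II spans 188 to 178 bases before it, in CRELD2 the ERSE spans 80 to 62 bases before it, and in ERO1B 243 to 225.

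The other 5 genes with such an element differed by less than 2-fold between ATRA and Control. Their elements are written on the strand that matches the consensus, with the fixed letters in capitals, so that the variable middle can be compared.
HSP90B1, farther from the start: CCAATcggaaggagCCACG
HSP90B1, nearer to the start: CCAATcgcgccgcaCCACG
PDIA6: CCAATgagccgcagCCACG
CALR: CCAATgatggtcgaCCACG
CANX: CCAATcttcacactCCACG
HYOU1, both sites alike: ATTGGaCCACG
HSP90B1 holds 2 ERSE, which begin 194 and 89 bases before the start. HYOU1 holds 2 ERSE-II, and the farther of them overlaps the UPRE of that window. CANX has 4 windows in the table and its ERSE is the same genomic site in each that holds it.

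DNAJB9 had the greatest difference of all 36 genes and holds none of the 3 elements in its window. It does hold the CCACG that ends both ERSE forms, on each strand, shown in capitals in the bases before its start.
DNAJB9, chr7:108569724-108569873, plus strand: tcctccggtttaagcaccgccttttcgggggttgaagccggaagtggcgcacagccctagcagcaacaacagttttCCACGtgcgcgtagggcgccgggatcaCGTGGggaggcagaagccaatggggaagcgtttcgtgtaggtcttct
CCACG alone is common: it was present for 23 of the 32 genes (71.9%) and for 42.1% of all genes. The 11 genes with an ERSE or ERSE-II had a median difference of 1.15 for ATRA against Control, and the 21 genes with a window but neither element had 0.68. At least 2-fold higher were 6 of the 11 and 5 of the 21, beside 4.23% of all measured and 3.83% of the filtered genes. The 6 include ERO1B, which stayed under the filter on every array. The 5 include SEL1L, which was at least 1.65-fold higher once intensities under 50 were set to 50. The ranges overlapped widely, from 0.31 (CANX) to 2.58 (HERPUD1) with an element and from −0.22 (MBTPS2) to 2.87 (DNAJB9) without, and this difference was not tested.

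Outside the 36 genes, 26 measured genes have an ERSE or ERSE-II in a window, and 19 of them passed the filter. Their median difference for ATRA against Control was 0.11, 15 of the 26 were higher and 11 lower, and 1 was at least 2-fold higher, beside 4.23% of all measured genes. That gene was FICD, which encodes the enzyme that attaches AMP to the chaperone BiP. Its log2 level was 8.62 on Control, 9.87 on ATRA and 8.67 on ATRA+NIC. It was 1.25 higher on ATRA than on Control and 1.20 lower on ATRA+NIC than on ATRA. SERP1, a stress-associated protein of the ER translocon, followed among the filtered genes with 0.88, and ALG12, an ER mannosyltransferase gene, with 0.75. The lowest difference was that of ZNF143-AS1, −0.97, and this gene was 1.27 higher on ATRA+NIC than on ATRA. Neighbouring genes, such as ZNF143 and ZNF143-AS1, may share a site. This was not checked, so the 26 genes need not hold separate sites.

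**Figure D2:**
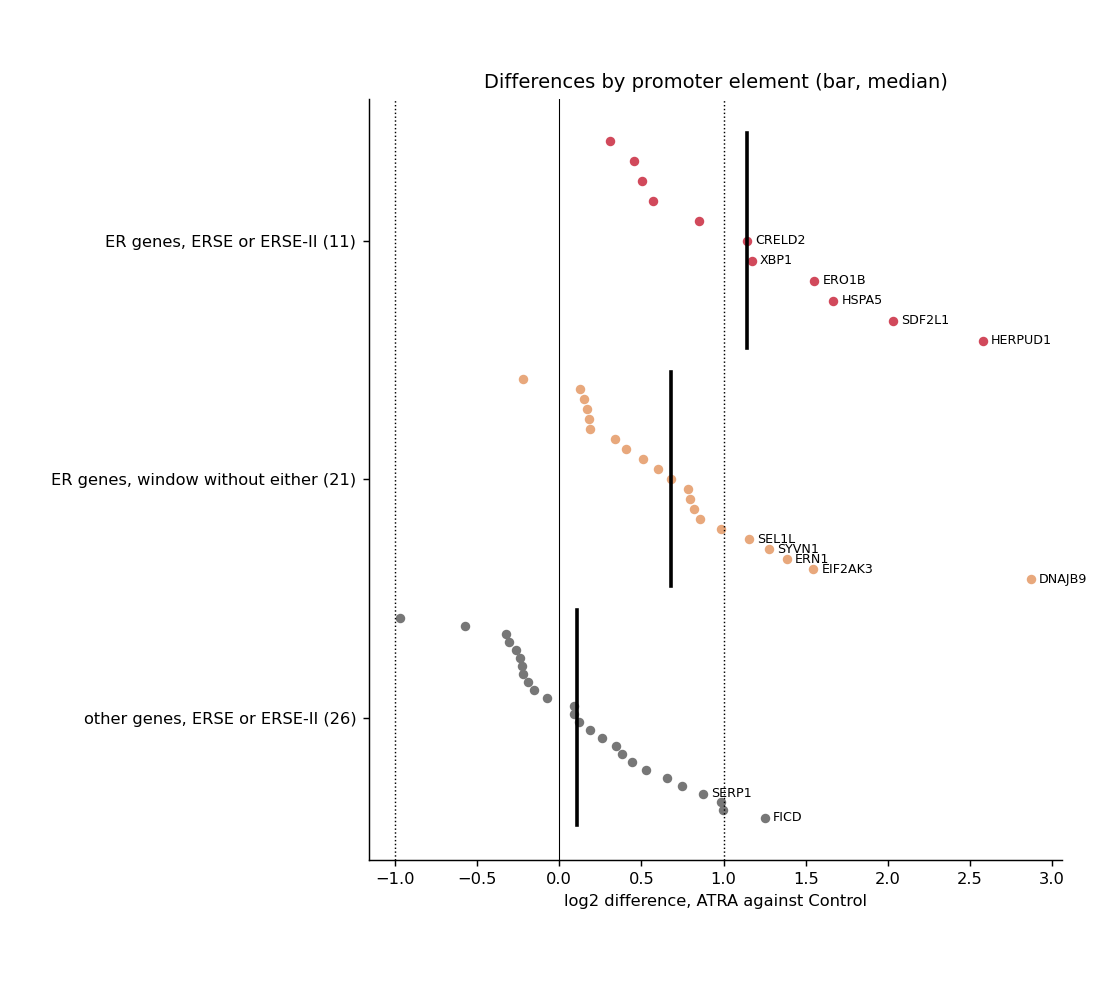
Log2 difference between the ATRA and Control arrays for the 11 ER genes with an ERSE or ERSE-II in their promoter window, the 21 ER genes whose window has neither, and the 26 other measured genes with an element. Points are genes, bars are medians (1.15, 0.68 and 0.11), and dotted lines mark 2-fold.

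Among the sensors, the genes of IRE1 and PERK were higher on the ATRA array and the gene of ATF6 was near its Control level. EIF2AK3 (PERK, the kinase that slows translation) had log2 levels of 9.71 on Control, 11.25 on ATRA and 9.42 on ATRA+NIC. It was 2.92-fold higher on ATRA than on Control and 3.58-fold lower on ATRA+NIC than on ATRA. ERN1 (IRE1, the kinase and endonuclease that splices XBP1 mRNA) had levels of 8.54, 9.93 and 8.35, 2.61-fold higher on ATRA than on Control and 2.98-fold lower on ATRA+NIC than on ATRA. Its 3 transcripts were higher on ATRA by 1.09, 1.86 and 1.20. Both genes thus lay below Control on the ATRA+NIC array, by 0.29 and 0.19 log2 units, which is close to the technical scatter of 0.24.

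XBP1, the transcription factor gene whose mRNA IRE1 splices, had levels of 12.42, 13.59 and 12.21. It was 2.25-fold higher on ATRA than on Control, in each of its 3 transcripts (0.84, 1.23 and 1.45), and 2.62-fold lower on ATRA+NIC than on ATRA. The arrays report the gene as a whole, and the spliced and unspliced forms of its mRNA were not analysed here. ATF6, the sensor that is released by cleavage in the Golgi, had levels of 11.88, 12.07 and 11.71, a difference of 0.19. The genes of the proteases that cleave it also stayed close to Control. MBTPS1 had 11.04, 11.17 and 10.96, and MBTPS2, under the filter, had 6.75, 6.53 and 6.95. MBTPS2 was the only one of the 36 genes lower on the ATRA than on the Control array, but 1 of its 2 transcripts lay under an intensity of 50 on all arrays and the other was 0.05 higher on ATRA.

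The HSP70 and HSP90 group held the greatest differences among the co-chaperones. DNAJB9 (ERdj4), a J-domain partner of BiP, had levels of 5.76 on Control, 8.62 on ATRA and 5.68 on ATRA+NIC. Values under 50, the lowest intensity that the authors keep in their value table, were set to 50 where they lay on the dimmer side of a fold, and such folds are written as "at least". DNAJB9 was at least 6.39-fold higher on ATRA than on Control and at least 7.34-fold lower on ATRA+NIC than on ATRA, and its 2 transcripts differed by 2.83 and 2.91 in the first comparison. SDF2L1, which keeps BiP clients from aggregating, had levels of 10.85, 12.88 and 11.10 and was 4.09-fold higher on ATRA. HSPA5 encodes BiP itself, the central ER chaperone and the restraint on the sensors. Its single transcript had levels of 8.66, 10.32 and 8.78, so it was 3.18-fold higher on ATRA than on Control and 2.92-fold lower on ATRA+NIC than on ATRA.

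The other members of this group were higher on ATRA than on Control by less than 2-fold. DNAJC3 (P58IPK), an inhibitor of PERK, was 1.97-fold higher on ATRA, at levels of 10.05, 11.03 and 10.08. HYOU1, the nucleotide exchange factor of BiP, was 1.80-fold higher on ATRA and then 2.17-fold lower on ATRA+NIC, at 13.45, 14.30 and 13.18. DNAJB11 (ERdj3) was 1.74-fold higher. HSP90B1 (GRP94), the HSP90 of the ER, had 13.82, 14.39 and 13.61 and was 1.49-fold higher. All transcripts of HYOU1, DNAJB11 and HSP90B1 had the sign of their gene in these 2 comparisons. DNAJC10 (ERdj5), a reductase that helps clear misfolded proteins, had 11.11, 11.28 and 11.09, a difference of 0.17, and its 5 transcripts ranged from −0.38 to 0.82. With the median of its transcripts on each array in place of the mean its difference turned to −0.38. That is the value of 1 transcript, the middle one on both arrays, and 4 of the 5 transcripts were higher on ATRA.

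Of the lectin chaperones and disulfide enzymes, 2 of 9 were at least 2-fold higher on ATRA than on Control, beside 4.23% of all measured genes. Of the 8 that passed the filter it was 1, beside 3.83% of the filtered genes. The median difference of the 9 was 0.51. CALR (calreticulin) and CANX (calnexin), which hold glycoproteins while they fold, differed by 0.45 and 0.31 between ATRA and Control, and on ATRA+NIC CALR lay 0.06 above and CANX 0.14 below Control. PDIA3, the disulfide isomerase that works with them, had levels of 11.71, 11.88 and 11.32. P4HB, the classical protein disulfide isomerase, had 11.78, 11.96 and 11.68. CRELD2, an ER-resident protein known for its induction by ER stress, had levels of 10.85, 12.00 and 10.72. It was 2.21-fold higher on ATRA than on Control and 2.43-fold lower on ATRA+NIC than on ATRA, in all 3 of its transcripts. PDIA4 was 1.76-fold higher on ATRA and PDIA6 1.42-fold.

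The oxidases that recharge the disulfide isomerases are read as ERO1L and ERO1LB in the files and carry the current symbols ERO1A and ERO1B. ERO1A had levels of 10.20, 10.80 and 9.94 and was 1.52-fold higher on ATRA. ERO1B had 5.62, 7.17 and 5.05, with intensities of 49.2 on Control and 33.2 on ATRA+NIC that lie under 50. It was at least 2.89-fold higher on ATRA than on either of the other arrays. With an offset of 100 added to each intensity before log2, its difference between ATRA and Control was 0.71, under 2-fold. All 9 genes of the lectin and disulfide group were higher on ATRA than on Control, beside 47.7% of all measured genes. All 9 were lower on ATRA+NIC than on ATRA, beside 45.7%. In each comparison 2 of them differed by at least 2-fold, beside 4.23% higher in the first and 4.12% lower in the second.

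In the degradation group the regulators of retrotranslocation stood first. HERPUD1, a ubiquitin-domain protein that organises the degradation complex, had levels of 11.55 on Control, 14.13 on ATRA and 11.16 on ATRA+NIC. It was 5.97-fold higher on ATRA than on Control and 7.80-fold lower on ATRA+NIC than on ATRA, and its 2 transcripts differed by 2.93 and 2.22 in the first comparison. SYVN1 (HRD1), the ubiquitin ligase of that complex, had 10.84, 12.12 and 11.40. It was 2.42-fold higher on ATRA than on Control and remained 1.48-fold above Control on the ATRA+NIC array. SEL1L, the partner that holds HRD1 in place, had 8.09, 9.25 and 8.30 and was 2.23-fold higher on ATRA as measured. The dimmer of its 2 transcripts lay under 50 on the Control and ATRA+NIC arrays, and with such values set to 50 SEL1L was at least 1.65-fold higher on ATRA than on Control.

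The mannosidase-like EDEM proteins mark misfolded glycoproteins for removal. EDEM1 was 1.72-fold higher on ATRA than on Control and 2.14-fold lower on ATRA+NIC than on ATRA, at levels of 10.41, 11.19 and 10.09. EDEM3 was 1.60-fold and EDEM2 1.42-fold higher on ATRA. Of the derlins, which form part of the exit channel, DERL2 was 1.81-fold higher at 10.41, 11.27 and 10.71. DERL1 differed by 0.15, at 11.88, 12.03 and 11.79, and DERL3 stayed under the filter at 5.89, 6.13 and 5.98. OS9, a lectin that delivers sugar-marked clients to the ligase, differed by 0.40. All 10 genes of this group were higher on ATRA than on Control, beside 47.7% of all measured genes. At least 2-fold higher were 3 of them, beside 4.23%. The 3 include SEL1L, which was at least 1.65-fold higher with values under 50 set to 50.

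The last group joins protein entry, protein export and calcium. SEC24D, a cargo adaptor of the vesicle coat that leaves the ER, had levels of 8.14, 8.85 and 8.43. Its difference of 0.71 between ATRA and Control averages 1.62 and 1.09 in its brighter transcripts and −0.57 in a transcript under 50 on all arrays. The authors' value table leaves that transcript out, and there the difference was 1.35, which is over 2-fold. SEC61B, a subunit of the channel through which new proteins enter the ER, had 11.18, 11.52 and 11.68 and was the only filtered member higher on ATRA+NIC than on ATRA. WFS1 (wolframin), an ER membrane protein of calcium balance, had 7.76, 7.92 and 7.65.

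**Figure D3:**
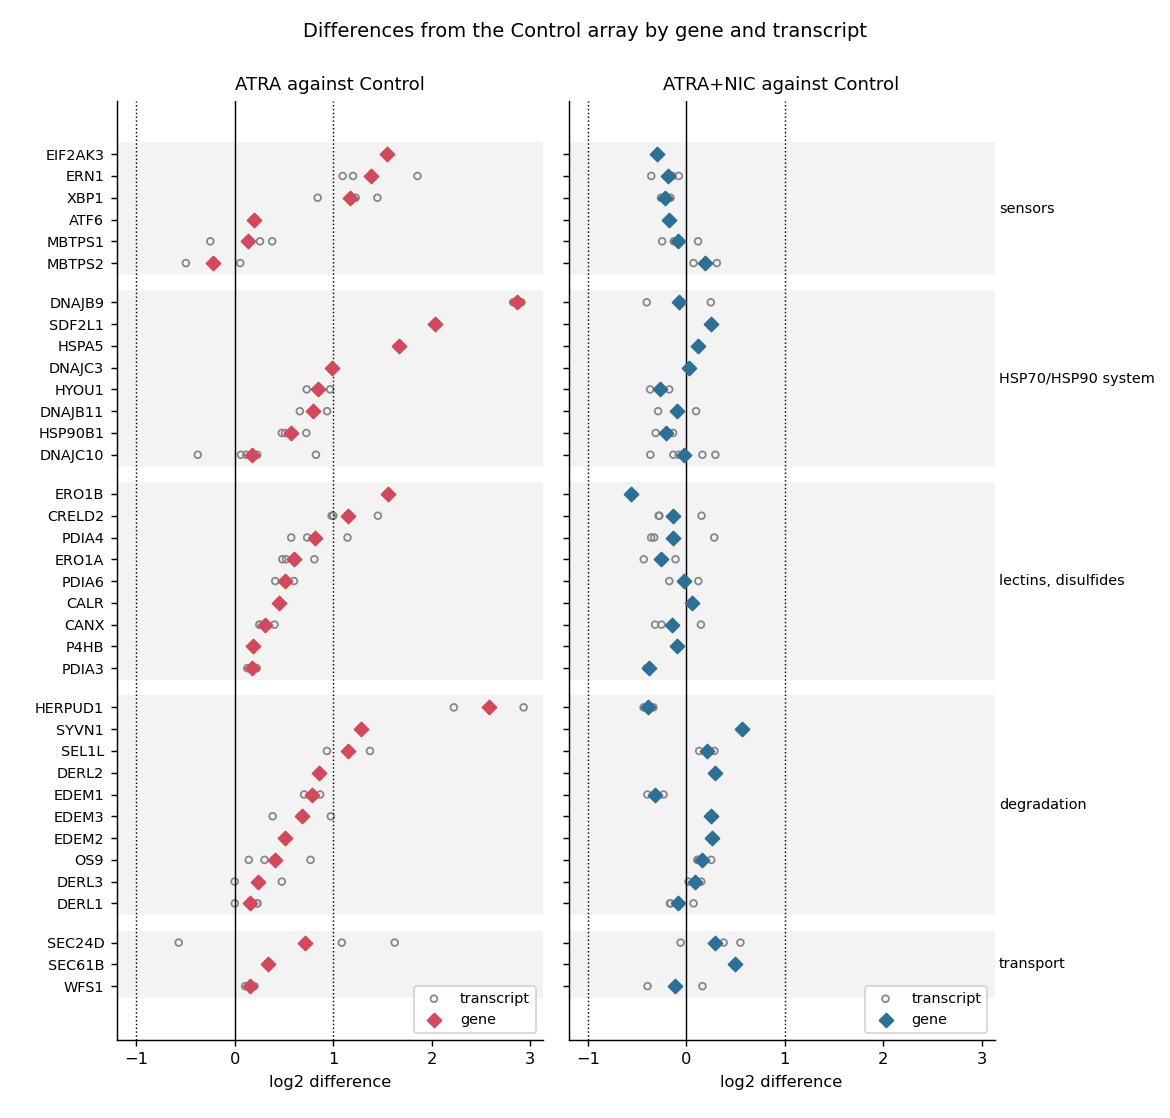
Log2 difference from the Control array for each of the 36 ER genes on the ATRA array (left) and the ATRA+NIC array (right). Filled diamonds are genes and open circles their transcripts, dotted lines mark 2-fold, and there is 1 array per group. On the left 35 of 36 genes lie above 0 and 11 at or beyond 2-fold, while on the right all lie between −0.57 and 0.56.

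Single transcripts were counted as well. Of the 75 transcripts, 70 were higher on ATRA than on Control and 5 lower. Of the 24 genes with more than 1 transcript, 19 had all transcripts in the same direction. The matching shares over all transcripts and all genes were not computed. Transcripts of a gene read the same RNA on the same arrays, so these counts add no support to the gene counts. At a looser size of 1.5-fold, 20 of the 36 genes were higher on ATRA than on Control and 0 lower, where 11.8% of all measured and 9.9% of the filtered genes were that much higher and 11.4% and 8.99% lower. Across the 36 genes the level on Control and the difference for ATRA had a Pearson correlation of −0.27, a description over genes that share the same arrays.

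Between ATRA+NIC and ATRA, 11 of the 36 genes were at least 2-fold lower, beside 4.12% of all measured and 3.74% of the filtered genes. At least 2-fold higher were 0 of the 36, beside 3.09% and 1.35%. At 1.5-fold, 18 of the 36 were lower, beside 11.2% and 9.47%, and 0 were higher, beside 11.3% and 7.88%. Of the 11 genes at least 2-fold higher on ATRA than on Control, 9 were at least 2-fold lower in this comparison, the exceptions being SEL1L (1.93-fold) and SYVN1 (1.64-fold). HYOU1 and EDEM1 made up the count. In all, 34 of the 36 genes were lower on ATRA+NIC than on ATRA, beside 45.7% of all measured and 44.2% of the filtered genes. The other 2, MBTPS2 and SEC61B, were higher, beside 54.2% and 55.8%. The level on the ATRA array was the highest of the 3 for 34 of the 36 genes and for 33.4% of all filtered genes. Because the ATRA array is common to both comparisons, each shows values of 1 array against another and neither supports the other.

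ATRA+NIC against Control does not use the ATRA array. Here 0 of the 36 genes stood 2-fold above Control, beside 2.32% of all measured and 1.03% of the filtered genes, and 0 stood 2-fold below, beside 2.08% and 0.971%. At 1.5-fold, 0 were higher, beside 8.25% and 3.96%, and 0 were lower, beside 7.4% and 3.87%. By sign alone 14 were higher, beside 50.4% and 48.8%, and 22 lower, beside 49.6% and 51.2%. Within 0.5 log2 units of Control were 34 of the 36, as were 88.3% of all filtered genes. The 2 outside that range were SYVN1 at 0.56 and ERO1B, under 50 on both arrays, at −0.57. By role, of the 10 degradation genes 7 were above Control on the ATRA+NIC array, with a median of 0.18. Of the 9 lectin and disulfide genes 8 were below it, with a median of −0.13, as were 5 of the 6 sensor genes, with a median of −0.18. Of the 8 HSP70 and HSP90 genes 3 were above Control, with a median of −0.05, and of the 3 genes of translocation, export and calcium 2, with a median of 0.29. Differences between roles were not tested.

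**Figure D4:**
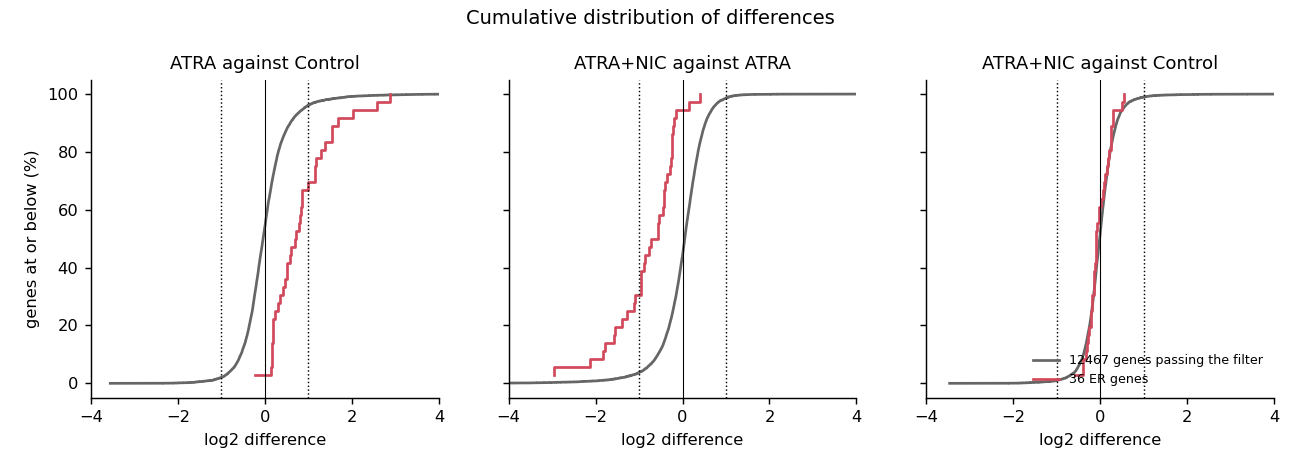
Cumulative share of genes by log2 difference in each of the 3 comparisons, for the 36 ER genes and for the 12467 genes that passed the filter, with 1 array per group. The line of the ER genes lies to the right for ATRA against Control (median 0.70), to the left for ATRA+NIC against ATRA (median −0.64) and on that of all genes for ATRA+NIC against Control (median −0.08).

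Lists of neighbouring genes were read beside all measured genes. Of these, 4.23% were at least 2-fold higher on ATRA than on Control and 3.22% at least 2-fold lower. Of 46 other genes of ER folding and degradation, all measured, the median difference for ATRA against Control was 0.06. At least 2-fold higher on ATRA were 3, not far from the share of all genes, and lower 0. They were MANF (2.22-fold), an ER protein that binds BiP, SELENOK (2.53-fold), a selenoprotein of the ER membrane, and HSPA13, an HSP70 relative. HSPA13 was at least 1.45-fold higher, or 2.80-fold as measured under 50 on Control, and stayed under the filter on every array. Of 44 genes of the translocon, signal peptidase and COPII coat, 0 reached 2-fold in either direction, and their median was 0.09. Of 21 Golgi genes, with a median of 0.11, 1 reached 2-fold and was lower. That gene was GBF1, which encodes an exchange factor for Golgi ARF proteins, at 2.04-fold lower, or 1.56-fold with a dim transcript value set to 50.

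The lists of the PERK and ATF4 branch and of cytosolic heat shock genes had medians nearer to that of the ER genes. The first also holds EIF2AK1, EIF2AK2 and EIF2AK4, genes of kinases other than PERK, at −0.24, −0.52 and −0.36 for ATRA against Control. In it 19 genes were higher on ATRA than on Control and 5 lower, beside 47.7% and 52.3% of all measured genes. ATF4 itself was 1.31-fold higher. The second also holds HSPD1 and HSPE1, genes of mitochondrial chaperones. Of 24 genes of the PERK and ATF4 branch, the median for ATRA against Control was 0.91. At least 2-fold lower on ATRA+NIC than on ATRA were 12, beside 4.12% of all measured genes. At least 2-fold higher on ATRA than on Control were 10, beside 4.23%, and lower 0, beside 3.22%. DDIT3 (CHOP), a transcription factor gene of prolonged stress, led them at 8.21-fold, followed by ATF3 (7.28-fold), TRIB3 (6.55-fold), PPP1R15A (5.96-fold), which encodes the phosphatase subunit that restores translation, CHAC1 (5.15-fold), which encodes a glutathione-degrading enzyme, and BBC3 (4.00-fold), which encodes the apoptosis protein PUMA. Of 15 cytosolic heat shock genes measured, the median was 0.69, and 4 reached 2-fold, all higher on ATRA, beside 4.23% of all measured genes. These were HSPA6 (8.96-fold), DNAJB1 (3.17-fold), HSPA1A (2.39-fold, whose probes may bind near-identical copies) and HSPH1 (2.12-fold).

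**Figure D5:**
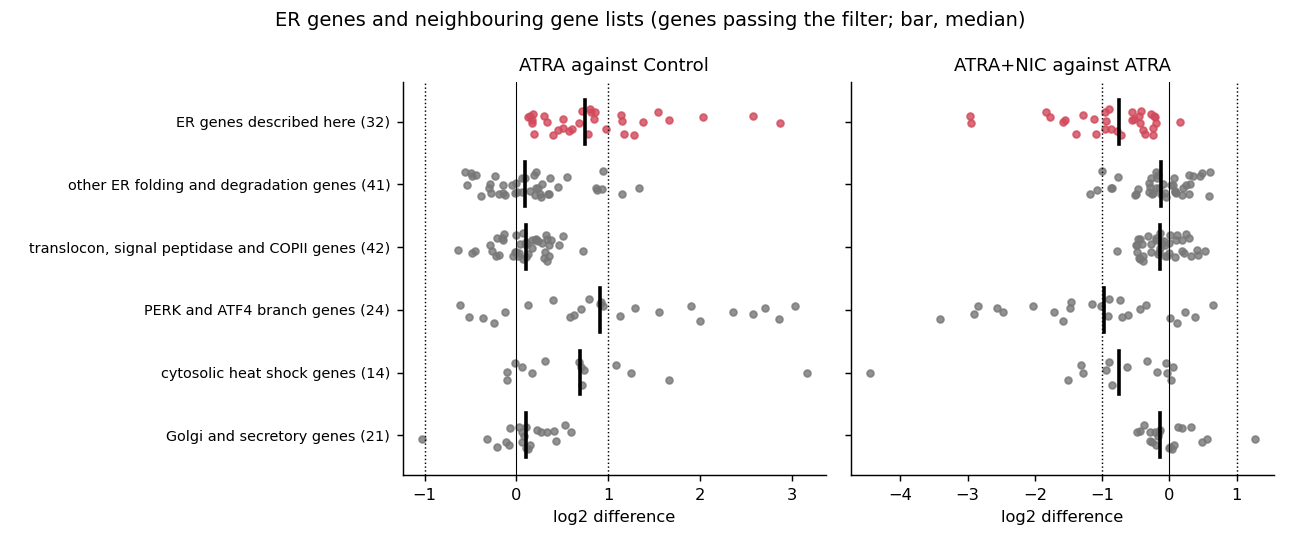
Log2 differences for ATRA against Control (left) and ATRA+NIC against ATRA (right) for the ER genes and 5 neighbouring lists, each point a gene that passed the filter, each bar a list median. Both panels share the ATRA array. The ER, PERK and heat shock medians lie away from 0, and those of the other 3 lists lie near it.

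The identity of the cells was checked on marker genes. All 10 keratinocyte markers reached an intensity of 50 on every array. Their summed intensity was 111835, 82225 and 76573. Between ATRA and Control 5 were higher and 5 lower, from the basal keratin gene KRT5, at 14.86, 13.29 and 13.29, to the keratin gene KRT17, at 7.62, 8.63 and 7.97. Of 6 leukocyte markers 4 reached 50 on Control, 5 on ATRA and 4 on ATRA+NIC, and their summed intensity was 2389, 4501 and 2867 and thus highest on the ATRA array. Most of that sum is CD68, a macrophage marker, at 10.79, 11.73 and 11.19. By gene, 5 of the 6 were higher on ATRA than on Control and LYZ, at 6.87, 6.23 and 6.43, was lower. The defining leukocyte marker PTPRC was at 5.07, 7.24 and 4.21, under 50 on Control and ATRA+NIC. CD3E, a T cell marker, was brighter, at 7.97, 8.97 and 6.14, and also highest on the ATRA array. Of 7 plasma cell markers, cells known for a constant UPR, 1, 3 and 3 reached 50, and their summed intensity was 7302, 4157 and 6532. That sum is mostly SDC1, which keratinocytes also express, at 12.80, 11.93 and 12.62. By gene, 5 of the 7 were higher and 2 lower on ATRA than on Control, with a median difference of 0.14. TNFRSF17, which defines plasma cells, stayed at log2 levels of 3.73 to 3.86, dimmer than the arrays' random probes, whose intensities were 18.4 to 19.6. Of 7 fibroblast markers 3, 2 and 4 reached 50, with sums of 1186, 1352 and 1317, of 5 melanocyte markers 2, 2 and 4, with sums of 338, 457 and 559, and of 5 endothelial markers 1, 1 and 2, with sums of 151, 195 and 170. The part of other cells in the ER gene levels was not tested. In RNA of a whole culture, fewer cells with a transcript and less of it per cell cannot be told apart.

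In the hg18 annotation of the files, HERPUD1 lies on chromosome 16 at 55523248 to 55535294, DNAJB9 on chromosome 7 at 107997591 to 108002530, HSPA5 on chromosome 9 at 127036952 to 127043430 and SDF2L1 on chromosome 22 at 20326541 to 20328588. EIF2AK3 lies on chromosome 2 at 88637375 to 88708074, ERN1 on chromosome 17 at 59474491 to 59561911 and XBP1 on chromosome 22 at 27520546 to 27526560. These positions are on another build than the promoter windows and cannot be set beside them.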

How the data were processed

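RNA of HaCaT cells was labelled with Cy3 and hybridised to 3 single-colour NimbleGen arrays, 1 per group. The labels do not say whether the RNAs came from separate cultures grown side by side. Per the file names and the file headers, the values the authors deposited are RMA gene calls, which are intensities on a linear scale, and they were used as deposited. The sources used here name no software. The authors' deposited value table, used as an alternative, repeats these intensities for 31275 transcripts, namely those of at least 50 on every array. Of 45033 transcripts, 42947 carry a gene name. Names were updated by Entrez number through a RefSeq table of GRCh38.p14, where 20230 of 23619 numbers matched.

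Log2 intensities were averaged over the transcripts of a gene with pandas 2.3.3 and numpy 2.4.6 in Python 3.11.15. The filter was a level of 7.95 (an intensity of 246.5) on at least 1 array. With 1 array per group no test was made, and a difference was described by a rule of size (2-fold). The code was tested on simulated data, which says nothing of the error between cultures. The members and lists were chosen with earlier results of these data known. Values are given for members at least 2-fold changed in any comparison, for the sensors, and for the extremes of each role; of the other lists, at most 6 genes at least 2-fold changed for ATRA against Control are named. FICD, SERP1, ALG12, ZNF143-AS1 and the markers given with values fall outside that rule and were chosen after their values were seen. The same holds for ATF4, EIF2AK1, EIF2AK2, EIF2AK4, HSPD1 and HSPE1. A planned description of proteins was not run. Alternatives changed the filter, the summary of transcripts, an offset, a floor, the scaling and the source of the values.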

Additional observations from a re-analysis of the deposited data

How the results depend on the processing

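Of the counts, medians and genome-wide totals of the 3 comparisons, 98 values under the alternatives stayed within 1.5 times the reported count or within the technical scatter, and 10 did not. With the filter at the 75th percentile, 6 of 26 members passing it were at least 2-fold changed for ATRA against Control, where 10 of 32 were reported, as 6 fewer members were tested. The other 9 concern all genes. The number at least 2-fold changed for ATRA against Control, ATRA+NIC against ATRA and ATRA+NIC against Control was 734, 634 and 249. It was 1756, 1701 and 1039 without a filter, 308, 269 and 92 with the 75th-percentile filter, and 485, 411 and 144 with an offset of 100 before log2. Fewer or more genes tested account for the change with the filter, and the offset shrinks differences of dim genes by its construction.

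Over the members measured under each alternative, the count for ATRA against Control ranged from 9 to 12. That for ATRA+NIC against ATRA ranged from 10 to 12, and ATRA+NIC against Control gave 0 under every alternative run. The authors' value table lacks ERO1B, whose only transcript lay under 50 on Control and ATRA+NIC, so that alternative gives no value for this gene. The member medians ranged from 0.64 to 0.75, from −0.71 to −0.59 and from −0.12 to −0.06. The 11 members at least 2-fold changed for ATRA against Control kept their direction in all 98 values under the alternatives and stayed at 2-fold in 94, and the 11 for ATRA+NIC against ATRA in 98 and 96. Changing the filter cannot alter a gene's difference, nor a count or median over all 36 members. Changing the summary of transcripts cannot alter a gene with 1 transcript. The tallies of this section include such fixed values. The ranges of counts and medians include median centring and quantile normalization. No paired analysis was possible because each group has 1 array.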

Other observations

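A few transcripts departed from the others of their gene. The 3 transcripts of MBTPS1, the gene of a Golgi protease, had log2 differences of 0.38, 0.26 and −0.25 between ATRA and Control. Those of OS9, the lectin gene of the degradation pathway, had 0.77, 0.30 and 0.14. The 2 transcripts of PDIA3 stood at log2 14.06 and 9.36 on the Control array, and their differences between ATRA and Control were 0.13 and 0.22. Of 24 members with more than 1 transcript, 18 had all of them in the same direction for ATRA+NIC against ATRA and 13 for ATRA+NIC against Control. The matching shares over all genes were not computed.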
